A study of Mus musculus with 6 samples.

Results

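The 9 nuclear-encoded subunits of mitochondrial complex III that were profiled here, together with the gene of its electron acceptor, cytochrome c, make up 10 of the 39177 gene rows in RNA sequencing of crude mouse heart mitochondria. They were chosen by gene name, as Uqcrc1, Uqcrc2, Uqcrfs1, Cyc1, Uqcrb, Uqcrq, Uqcrh, Uqcr10, Uqcr11 and Cycs. The rule used no measured value, but earlier results of these data were known when they were chosen. The 3 control libraries (L/L, Polrmt +/+) came from C57BL/6N mice aged 3 to 4 weeks whose Polrmt exon 3 was flanked by loxP sites. The 3 knockout libraries (L/L, cre, Polrmt -/-) came from mice of the same strain and age in which cre, driven by the promoter of muscle creatine kinase, excised that exon. Polrmt encodes the RNA polymerase of mitochondria, and the comparison addresses which transcripts differ when it is removed. This cre acts in muscle cells, so other cells of the heart keep the loxP-flanked gene. Nuclear transcripts in such a preparation are those that were isolated along with the mitochondria, and their level in whole heart was not measured.

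Complex III, or ubiquinol:cytochrome c oxidoreductase, takes electrons from reduced coenzyme Q and passes them to cytochrome c while it moves protons across the inner membrane. Its redox centres sit in cytochrome b, which is encoded by mtDNA (mt-Cytb), and in the nuclear-encoded cytochrome c1 and Rieske iron-sulphur protein. Core proteins and small subunits, all encoded in the nucleus, surround this centre, and heart muscle, with its heavy use of oxidative phosphorylation, expresses them at high levels. The complex therefore needs transcripts from both genomes, of which only mt-Cytb is made by POLRMT.

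Polrmt itself was counted 3, 2 and 1 times in controls 1 to 3 and 2, 5 and 1 times in knockouts 1 to 3, and a gene-level count does not resolve exon 3, so it checks neither the deletion nor the labels. Libraries held between 2867067 and 3234729 gene-assigned counts in controls and between 1062030 and 1227997 in knockouts, of which 79.5% to 83.5% and 21.1% to 25.8%, respectively, were from mtDNA. After 5 loci that collect ribosomal RNA reads, the other nuclear genes held between 76949 and 109351 counts in controls and between 126339 and 164004 in knockouts, and control 1 was the shallowest. Levels are given below as CPM, nuclear read counts scaled by TMM to a common library size of 1000000 nuclear counts, on which 1 count is worth between 1.03 and 2.20 CPM. The 5 ribosomal RNA loci are part of this scale and held 80.6% to 84.6% of nuclear counts in controls and 82.0% to 84.9% in knockouts. Each CPM is therefore lower than it would be per count outside those loci. Cardiomyocyte markers summed to between 19941 and 25531 CPM in controls and between 20440 and 21666 CPM in knockouts. None of the 10 was at 0, and 4 of the 9 tested were called lower (edgeR adjusted p under 0.05). Macrophage markers (8 genes, none at 0 in every library) summed to between 133 and 187 CPM in controls and between 50.4 and 71.4 CPM in knockouts. The 3 tested were all called lower, and the others had too few counts for the test. Among all tested genes, 7.81% were called lower. Summed markers of fibroblasts (1808 to 1944 against 1571 to 1801 CPM) also lay lower in knockouts without overlap, by a narrow gap. The same held for endothelial cells (349 to 398 against 279 to 329) and smooth muscle (320 to 372 against 192 to 282). Erythroid markers overlapped (147 to 321 against 158 to 289). Taken singly, 33.3% of all tested genes had groups that did not overlap, in either direction. Of the tested genes, 2 of 7 fibroblast, 0 of 7 endothelial and 2 of 4 smooth muscle markers were called lower. Col1a1, Col1a2 and Col3a1, the fibroblast markers with the most counts, were not called. The 2 called were Dpt (log2 fold change -1.41, edgeR adjusted p = 0.00036) and Pdgfra (-0.64, edgeR adjusted p = 0.048). Of the 7 tested fibroblast markers, 6 lay below 0 and 1 above. No defining marker of these lists was at 0 in every library. The part of these markers in the results was not tested. As in any bulk RNA, fewer cells of a type and less RNA per cell cannot be told apart. Whether nuclear transcripts were carried along equally into each mitochondrial preparation was not tested.

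The promoters of 6 members are held in RefSeq's table for GRCm38.p6 (250 bases before to 50 after the start): Cycs, Uqcrc1, Uqcr11, Uqcr10, Uqcrfs1 and Uqcrh. Not in that table are Uqcrc2, Cyc1, Uqcrb and Uqcrq. The core of the binding motif of NRF1, a transcription factor known from respiratory chain genes, is shown here because it was found in more of them than any other motif searched. Written GCGCATGC and searched on both strands, it was present in 3 of the 6 and in 2.71% of all 32851 promoters. The windows of 30 bases around it, written 5′ to 3′ on the gene's strand with the match in capitals, lie at chr6:50566611-50566640 (Cycs, minus strand), chr9:108936668-108936697 (Uqcrc1, plus strand) and chr10:80406807-80406836 (Uqcr11, minus strand).
Cycs: catgctagctcGCATGCGCgcgcacaaacc
Uqcrc1: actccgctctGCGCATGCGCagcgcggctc
Uqcr11: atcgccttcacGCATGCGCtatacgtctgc
The Cycs match starts at base -60 and that of Uqcr11 at base -4 from the transcript start. The Uqcrc1 match covers bases 31 to 40 after its start, where matches on both strands overlap. Of other motifs, the GABPA motif CCGGAAG was found in 2 of the 6 (Uqcr11 and Uqcrh) and in 8.86% of all promoters. The CREB motif TGACGTCA was found in 2 (Cycs and Uqcrfs1) and in 1.79% of all. The ERR motif (AAGGTCA, 4.72% of all promoters), the YY1 core (AAGATGG, 6.34%) and the ATF4 composite motif (TGATGNAA, 3.97%) had no match in these 6 windows. A match is a string of letters and says nothing about whether a factor was bound.

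None of the nuclear complex III genes was called higher or lower in knockout hearts. Of the 10 members, 9 passed the low-count filter, and edgeR's quasi-likelihood test called 0 of them at an adjusted p under 0.05. Over all 2369 tested genes, 8.57% were called higher and 7.81% lower. At an unadjusted p under 0.05 the members also numbered 0, against 685 of all tested genes, and DESeq2 and limma voom called 0 as well. Control and knockout ranges overlapped in all 9, whereas they did not overlap in 33.3% of all tested genes. The median log2 fold change of the tested members was -0.00042 and that of all tested nuclear genes -0.0068. Among the members, 8 of 9 lay between the quartiles of all tested nuclear genes, at -0.35 and 0.35.

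**Figure D1:**
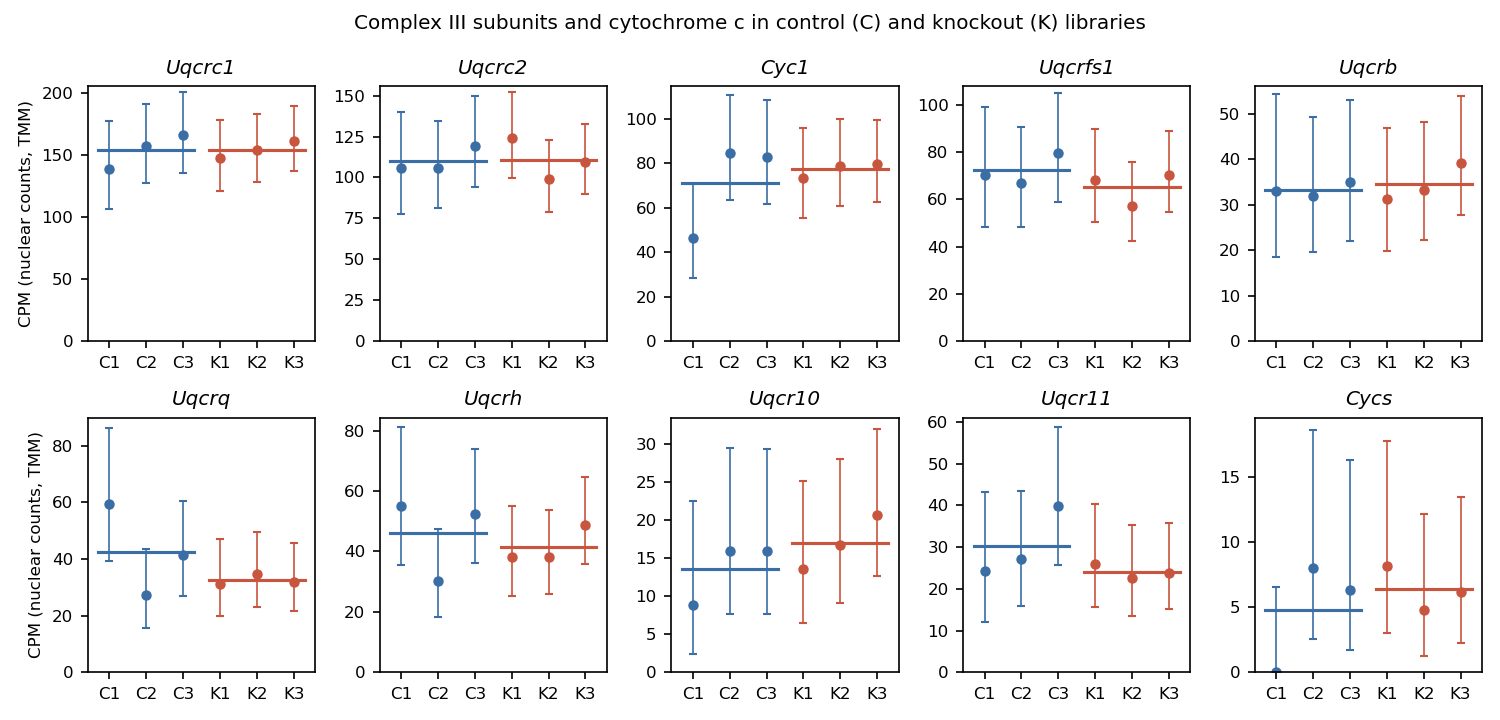
Level of each member (CPM of nuclear counts, linear axes from 0) in control libraries C1 to C3 (blue) and knockout libraries K1 to K3 (red); points are libraries, bars their 95% Poisson intervals (counting error only; for the 0 of Cycs the bar ends at 3 counts), and lines the group means. Control and knockout points overlap in all 10 panels, and Cycs is at 0 in C1.

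The core proteins form the large matrix-facing part of the complex and are related to the mitochondrial processing peptidase. Uqcrc1, core protein 1 (ENSMUSG00000025651, chromosome 9, 108936633 to 108949623, GRCm38), stood at 139, 157 and 166 CPM in controls and 147, 154 and 161 CPM in knockouts. Its knockout values lay inside the control range, and its log2 fold change was -0.00042 ± 0.15 (SE, n = 3 against 3; 95% interval -0.30 to 0.30; edgeR adjusted p = 0.999). This is the most precise value among the members, and its interval spans 0.815-fold to 1.23-fold. Uqcrc2, core protein 2 (ENSMUSG00000030884, chromosome 7, 120635176 to 120659524), stood at 106, 106 and 119 CPM in controls and 124, 98.9 and 110 CPM in knockouts. Its log2 fold change was 0.0010 ± 0.16 (95% interval -0.32 to 0.32). Counts of Uqcrc1 per count of Uqcrc2, which need no scaling between libraries, averaged 1.39 in the 3 controls (SD 0.086) and 1.40 in the 3 knockouts (SD 0.193).

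The catalytic subunits are the ones that carry electrons beside cytochrome b. Cyc1, cytochrome c1 (ENSMUSG00000022551, chromosome 15, 76343523 to 76346260), stood at 46.2, 84.7 and 82.8 CPM in controls and 73.6, 78.7 and 79.6 CPM in knockouts. Control 1, at 46.2 CPM from 21 counts (95% Poisson interval 28.6 to 70.6 CPM), was below the other 5 libraries, at 73.6 to 84.7 CPM. The log2 fold change of 0.08 ± 0.19 (95% interval -0.29 to 0.46) turned to -0.11 without control 1. Uqcrfs1, the Rieske iron-sulphur protein (ENSMUSG00000038462, chromosome 13, 30540308 to 30545362), stood at 70.4, 67.1 and 79.6 CPM in controls and 68.1, 57.2 and 70.3 CPM in knockouts. Its knockout values overlapped with the lower part of the control range, at a log2 fold change of -0.15 ± 0.19 (95% interval -0.52 to 0.22; edgeR adjusted p = 0.657).

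The 5 small subunits, which have no redox centre, were less deeply counted, and their intervals were wider. Uqcrb, which binds near the ubiquinone site (ENSMUSG00000021520, chromosome 13, 66900617 to 66905378), ranged from 32.0 to 35.0 CPM in controls and from 31.3 to 39.3 CPM in knockouts, with a log2 fold change of 0.07 ± 0.25. Uqcrh, the hinge protein between cytochromes c1 and c (ENSMUSG00000063882, chromosome 4, 116066965 to 116075071), ranged from 30.4 to 55.0 CPM in controls and from 38.1 to 48.6 CPM in knockouts, with a log2 fold change of -0.11 ± 0.23. Controls enclosed the knockouts for Uqcrh, and not for Uqcrb.

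Uqcrq (ENSMUSG00000044894, chromosome 11, 53427922 to 53430831) had 59.4, 27.2 and 41.4 CPM in controls and 31.3, 34.6 and 32.1 CPM in knockouts. The controls differed from each other by more than the groups did, and control 1 was the highest of all libraries. The log2 fold change was -0.33 ± 0.25 (95% interval -0.83 to 0.17; edgeR adjusted p = 0.411). It was -0.07 without control 1 and -0.59 without control 2, where the edgeR adjusted p was 0.169.

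Uqcr11 (ENSMUSG00000020163, chromosome 10, 80402997 to 80406830) had 24.2, 27.2 and 39.8 CPM in controls and 25.9, 22.6 and 23.8 CPM in knockouts. Control 3 was the highest library, and the log2 fold change was -0.36 ± 0.29 (95% interval -0.94 to 0.21; edgeR adjusted p = 0.445), or -0.098 without control 3. Uqcr10 (ENSMUSG00000059534, chromosome 11, 4701973 to 4704342) had 8.80, 16.0 and 15.9 CPM in controls and 13.6, 16.7 and 20.7 CPM in knockouts, from 4 to 20 counts per library. Its log2 fold change of 0.30 ± 0.38 had the widest interval (-0.46 to 1.06), and it was the one tested member whose interval reached past a doubling. It was 0.12 without control 1, its lowest library, and 0.14 without knockout 3, its highest. For the other 8 the intervals lay within a 2-fold change either way, so that larger changes were outside them, while smaller ones were not resolved.

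**Figure D2:**
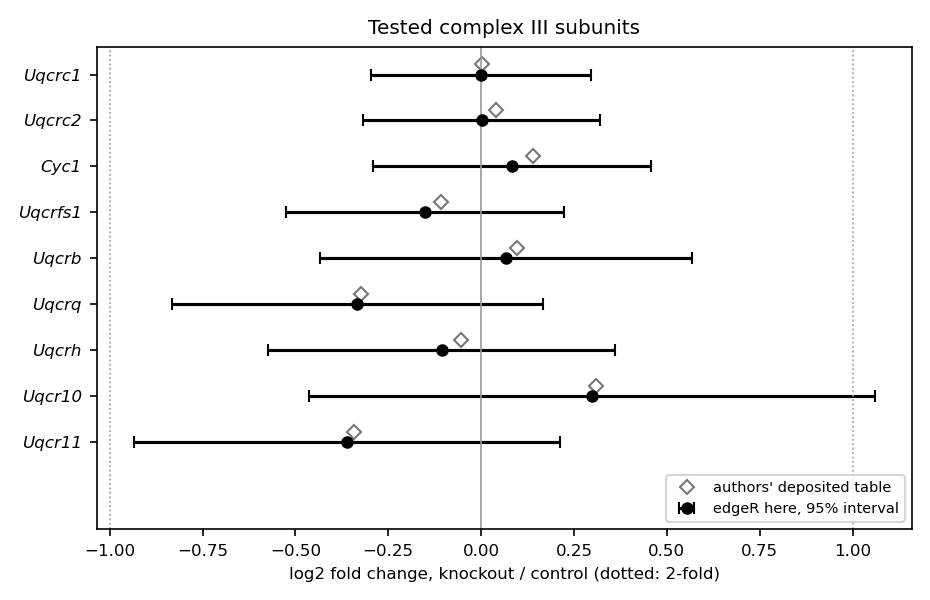
Log2 fold change (knockout over control) of the 9 tested complex III genes, as filled points with 95% intervals from edgeR, beside the value in the authors' deposited table (open diamonds); dotted lines mark a 2-fold change. All 9 intervals include 0, and that of Uqcr10 passes the upper dotted line.

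Cytochrome c, the soluble carrier that accepts the electrons, was nearly absent from the counts. Cycs (ENSMUSG00000063694, chromosome 6, 50562563 to 50566538) was counted 0, 5 and 4 times in control and 6, 4 and 6 times in knockout libraries, and it did not pass the filter. The 0 in control 1 allows, at 3 counts, a level of up to 6.60 CPM. Over the groups, 9 counts stood against 16, a knockout-to-control ratio, after scaling, of 1.20 (95% Poisson limits 0.498 and 3.07). The testis form of cytochrome c, Cyct, had no counts in any library.

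Cycs is also the member whose counts are least certain, because near-identical copies of its coding sequence lie elsewhere in the genome. In GENCODE M21, 19 other genes held a match of at least 85% identity over at least 100 bases. Of these, Dennd5b (90.1% over 322 bases), a protein-coding gene of another family with 52 counts over the 6 libraries, was left out after its values were seen, which leaves 18 copies, 9 of them rows of the files. The stretch below, coding bases 1 to 60, is shown because Cycs and Gm10053 (chromosome 19) are identical over all 315 coding bases. Read pairs that lie wholly within these bases cannot be told apart by sequence, and bases outside the coding sequence were not compared. The pseudogene Gm10108 (chromosome 5) differs by 2 bases over the same length, both in this stretch and given in capitals.
Cycs: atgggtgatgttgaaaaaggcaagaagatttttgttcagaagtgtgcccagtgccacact
Gm10053: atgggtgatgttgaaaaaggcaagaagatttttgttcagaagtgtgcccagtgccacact
Gm10108: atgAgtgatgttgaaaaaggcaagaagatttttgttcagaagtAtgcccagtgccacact
Gm10053 was counted 2, 3 and 2 times in control and 2, 5 and 3 times in knockout libraries. Without Dennd5b, the copies together held 20 counts, against 25 in Cycs itself. The sources used here do not give how reads with several alignments were treated, so the Cycs count may be split.

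Uqcrb has 4 such copies and Uqcr11 has 2, and those of Uqcrb held 22 counts against 146 in the gene. Those of Uqcr11 held 7 counts in controls and 2 in knockouts, against 114 in the gene over all libraries. A 60-base stretch of Uqcrb, coding bases 150 to 209, is shown with its copy Gm2962 (chromosome 1), which differs at 6 of 333 bases, 1 of them here in capitals.
Uqcrb: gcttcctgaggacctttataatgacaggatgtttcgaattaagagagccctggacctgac
Gm2962: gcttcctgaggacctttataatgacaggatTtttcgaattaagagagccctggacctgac
With the counts of the copies added, the log2 fold change of Uqcrb was 0.05 and that of Uqcr11 -0.50 (edgeR adjusted p = 0.224). Copies of Uqcrh (4) and 1 copy of Uqcr10 had no counts. A second match to Uqcr10, in the antisense gene 4930481A15Rik (95% identity over 161 bases), was left out in the same way and had 5 counts, against 68 in Uqcr10. At these settings no copy was found for Uqcrc1, Uqcrc2, Uqcrfs1, Cyc1 or Uqcrq. Exons of Uqcrc2 and Uqcrb also overlap those of Pdzd9 and Gm10767 on the opposite strand, both with no counts. The strand setting is not given, so how reads from the shared bases were counted is not known.

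Levels can be compared between genes only per length. Per kilobase of the principal transcript, the mean over the 6 libraries ran from 93.1 CPM for Uqcrc1 through 80.1 for Uqcrh, 63.5 for Uqcrb, 61.2 for Uqcr11, 58.3 for Uqcrc2, 50.5 for Uqcrfs1, 48.9 for Cyc1, 35.2 for Uqcr10 and 24.8 for Uqcrq to 1.79 for Cycs. Each pair of neighbours in this order overlapped across libraries except Uqcrq and Cycs. Per kilobase of all annotated exons the order changed, with Uqcrfs1 first and Uqcrc1 in place 5, while Uqcr10, Uqcrq and Cycs kept the last 3 places. The level per length thus depends on which transcript is assumed.

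Summed over the 10 members, the level was 541, 555 and 638 CPM in controls and 561, 539 and 592 CPM in knockouts. The means were 578 ± 52.6 and 564 ± 26.6 CPM (SD over the 3 libraries of each group), and the ranges overlapped. Core proteins summed to 264 ± 20.4 CPM in controls and 265 ± 10.6 CPM in knockouts, catalytic subunits to 144 ± 24.0 and 143 ± 7.10 CPM, and small subunits to 166 ± 28.8 and 150 ± 12.7 CPM. As a share of the 10 members' counts, Uqcrc1 made up 26.6% ± 1.44 in controls and 27.3% ± 1.16 in knockouts, and Cyc1 12.3% ± 3.42 and 13.7% ± 0.781. In all 10 members the shares of the groups overlapped.

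As a share of all gene-assigned counts, in contrast, the members made up 0.0110% ± 0.00293 in controls and 0.0423% ± 0.00396 in knockouts (SD, n = 3 per group), 3.86 times as much, with no overlap between groups. The total is mostly mtDNA in controls and mostly nuclear in knockouts. As a share of nuclear counts outside the ribosomal RNA loci they made up 0.336% ± 0.0264 and 0.330% ± 0.0175, and those ranges overlapped.

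The mtDNA-encoded subunit moved apart from its nuclear partners. mt-Cytb, cytochrome b (chromosome M, 14145 to 15288), was counted 49835, 51026 and 48794 times in control and 2013, 2045 and 2940 times in knockout libraries. Its log2 fold change against nuclear counts was -5.03 ± 0.19 (edgeR adjusted p = 7.02e-34). For each count of the 9 nuclear subunits combined, mt-Cytb had 203, 149 and 123 counts in controls and 4.96, 4.56 and 5.19 in knockouts. This ratio, which needs no scaling between libraries, was 32.3-fold higher in controls, and its log2 difference stayed between -5.15 and -4.79 when any 1 library was left out.

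Set against single partners, mt-Cytb had 1425 ± 821 counts per count of Cyc1 in controls and 35.5 ± 3.92 in knockouts. Per count of Uqcrfs1 it had 1249 ± 292 and 42.0 ± 1.57, and per count of Uqcrc1 594 ± 173 and 17.8 ± 1.67 (SD over the 3 libraries of each group). The groups did not overlap in any of these ratios. The wide spread for Cyc1 in controls comes from control 1, at 2373 against 963 and 938. By contrast, Cyc1 per Uqcrfs1, both nuclear and catalytic, was 0.656, 1.26 and 1.04 in controls and 1.08, 1.38 and 1.13 in knockouts, and overlapped.

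**Figure D3:**
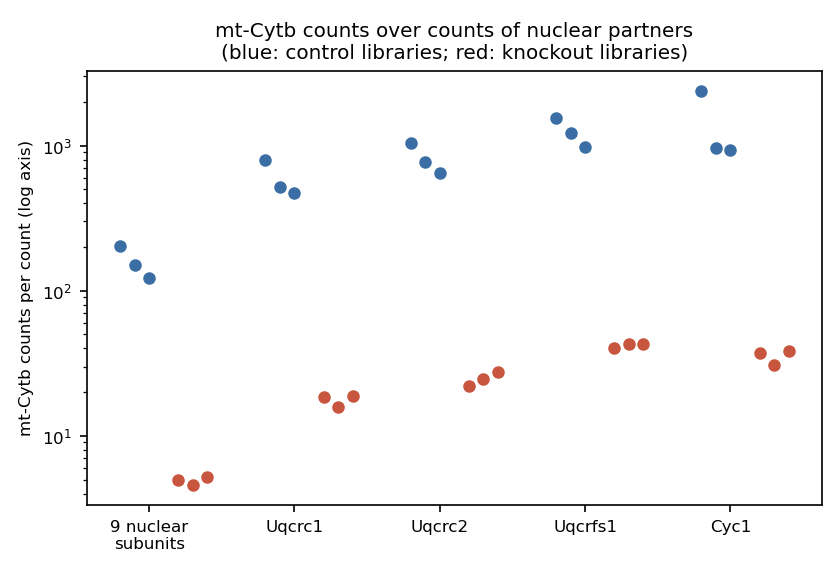
Counts of mt-Cytb per count of the 9 nuclear complex III subunits together and of 4 of them alone (log axis); points are libraries, blue for control and red for knockout. Per count of the 9 subunits, controls lie between 123 and 203 and knockouts between 4.56 and 5.19.

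In the authors' deposited table, which lists 9 of the members and not Cycs, 0 had a false discovery rate under 0.05, and the lowest was 0.596. Log2 fold changes in the authors' deposited table ran from -0.34 to 0.31 for the members and were within 0.0552 of those computed here. Of all 6319 genes in the authors' deposited table, 5.32% had a false discovery rate under 0.05.

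Genes that build complex III or work beside it were given by lists. Of 11 assembly and supercomplex factors, 2 passed the filter and 0 were called: Uqcc1, which helps cytochrome b enter the complex, at a log2 fold change of 0.55 (edgeR adjusted p = 0.310), and Cox7a2l, a factor of supercomplexes with complex IV, at 0.45 (edgeR adjusted p = 0.417). Uqcc2, the partner of Uqcc1, had 0, 0 and 1 counts in controls and 4, 5 and 5 in knockouts, too few for the test. Uqcc1, Uqcc2 and Cox7a2l were named after their values were seen.

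Of 12 dehydrogenase genes that feed electrons into coenzyme Q, 7 were tested and 0 called, with a median log2 fold change of -0.09. Of 14 regulators of respiratory chain genes, 5 were tested and 0 called. Both Pmpca and Pmpcb, the processing peptidase subunits related to the core proteins, were tested and neither was called, at log2 fold changes of 0.90 and 0.66 (edgeR adjusted p = 0.0656 and 0.162). Their control and knockout ranges did not overlap, unlike those of Uqcrc1 and Uqcrc2, but the same held for 33.3% of all tested genes. Without knockout 2 or knockout 3, 1 of the 2 was called higher. The difference between them and the core proteins was not tested.

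Of 13 genes that act with cytochrome c or share its compartment, 2 were tested and 1 was called, as higher. Among all tested genes, 8.57% were called higher. Sod1, the copper-zinc superoxide dismutase, which is found in the cytosol and the intermembrane space, was counted 7, 8 and 6 times in control and 19, 22 and 29 times in knockout libraries. It rose by 1.15 ± 0.37 on the log2 scale (edgeR adjusted p = 0.0126), and this call was lost with DESeq2 and without control 2 or control 3.

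Nuclear subunits of the other complexes were set beside complex III. For complex I, 25 of 36 were tested, 0 were called, and the median log2 fold change was 0.15. For complex IV, 13 of 14 were tested, 0 were higher and 1 was lower, Cox7a1, the heart and muscle form of subunit 7a, at -0.998 ± 0.26 (edgeR adjusted p = 0.00308), with a median of 0.0076. That call was lost with DESeq2 and without control 1. For ATP synthase, 13 of 16 were tested and 3 were higher, Atp5f1, Atp5g1 and Atp5d, at 0.61, 0.58 and 0.60, with a median of 0.08. None of the 3 was called with DESeq2, without TMM scaling or without control 2. These 4 genes were named after their values were seen, and no test compared the complexes. Among all tested genes, 8.57% were called higher and 7.81% lower.

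**Figure D4:**
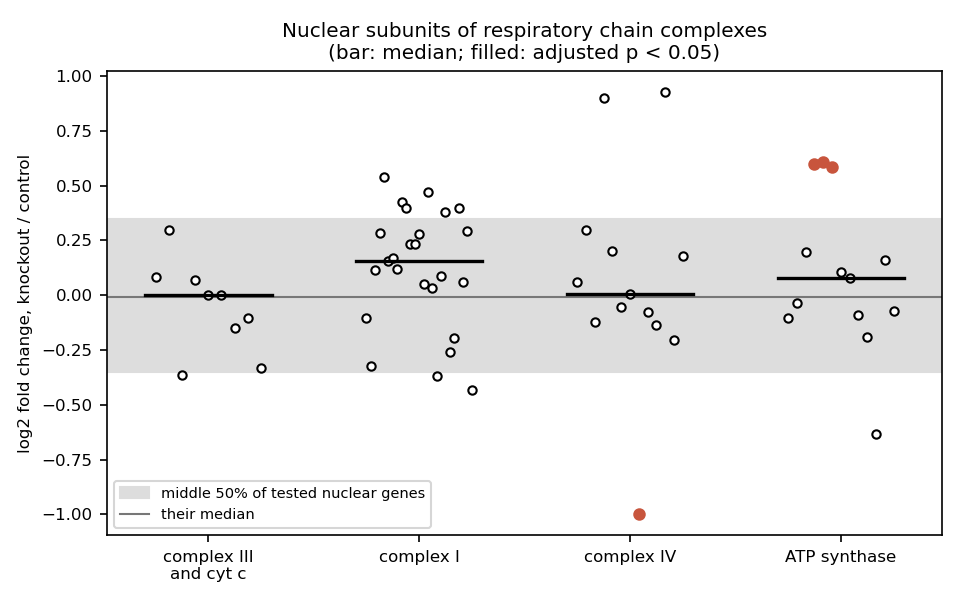
Log2 fold change (knockout over control) of each tested nuclear subunit gene, by complex; black bars are medians, filled points passed an adjusted p of 0.05, and the grey band holds the middle 50% of tested nuclear genes. Complex III genes lie between -0.36 and 0.30 around a median of -0.00042, with no filled point.

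Among 1168 other nuclear genes of at least median expression, those whose centred log2 CPM over the 6 libraries lay closest to the members' mean profile were Qk, Adcy6, Ppp1r12b, Myh6 and Sptan1. Their root mean square distances were 0.036, 0.069, 0.077, 0.084 and 0.086 on the log2 scale. Myh6, the main myosin heavy chain of the adult mouse heart, had a log2 fold change of 0.0014. All 5 were highest in control 3, as was the members' mean profile, at 0.20 against -0.08 to 0.08 in the other libraries. The 5 were picked for closeness to this profile, so their shared peak and small fold changes follow from the choice. Of the tested members, only Uqcrc1, Uqcrfs1 and Uqcr11 were themselves highest in control 3.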

How the data were processed

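RNA of crude heart mitochondria was isolated with the miRNeasy kit, made into Illumina TruSeq libraries and read as pairs on a MiSeq, per the labels' protocols. The tools listed per the submitters' processing notes are edgeR 3.11.2, R 3.2.0, featureCounts 1.3.5-p4 and HISAT 0.1.6, with GRCm38 as the build. Not given in the sources used here: annotation release, strand setting, handling of multiply aligned reads. The deposited raw counts, whole numbers per gene, were used. Per the file headers, the authors' deposited comparison lists a log2 fold change, p-value and false discovery rate per gene. Normalised values deposited as a score were not used.

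Libraries were grouped by genotype, 3 against 3, and the design text names 3 mice per group. Counts were fitted with edgeR 4.0.16 in R 4.3.3 (robust quasi-likelihood test, 2-sided), with filterByExpr (minimum count 10, minimum total count 15) and TMM computed on nuclear genes and Benjamini-Hochberg adjustment over all 2369 tested genes. mtDNA genes stayed in the fit. Alternatives changed the scaling, filter, test (DESeq2 1.42.0, limma 3.58.1), replicate block and libraries. The procedure was tested on simulated data. Copies were found with blastn 2.17.0 from coding sequences in GENCODE M21, which also gave symbols and positions. Poisson intervals are at 95% and cover counting error only, as does the limit of 3 counts for a count of 0. Libraries of the same group differed beyond sampling noise (chi-square per degree of freedom 1.30 to 6.26), and reads carry no molecular identifiers. Genes were named by a rule: all members, mt-Cytb, called genes of linked lists, copies and paralogs of members, and the 5 closest profiles. Other genes were named after their values were seen. Members and lists were chosen with earlier results of these data known.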

Additional observations from a re-analysis of the deposited data

How the results depend on the processing

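In all 16 alternatives 0 of the tested members were called higher or lower, and their median log2 fold change stayed between -0.095 and 0.065 (-0.058 to 0.065 without any 1 library). With the replicate block it was -0.0061. Replicate numbers do not pair the libraries: same-numbered libraries correlated at -0.0098, 0.0054 and 0.066 in their deviations, and not every library correlated best with its own number. Members with values near 0 changed sign without being called. Uqcrc1 was at 0.0044 without the ribosomal RNA loci, 0.031 with no filter, 0.040 over genes counted in all 6 libraries, 0.013 with DESeq2, 0.00013 with limma voom and 0.0022 with the replicate block, and at -0.058 to 0.065 without any 1 library. Uqcrc2 was at -0.076 with mtDNA kept in the scaling, -0.10 without TMM, -0.014 with DESeq2 size factors, -0.0056 with limma voom and -0.0061 with the replicate block, and at -0.060 to 0.090 without any 1 library. Uqcrb was at -0.0080 with mtDNA kept in the scaling and -0.025 without TMM, where Cyc1 was at -0.013. Without any 1 library, Uqcrb ran from -0.019 to 0.15, Cyc1 from -0.11 to 0.21, Uqcrh from -0.36 to 0.042, Uqcr10 from 0.12 to 0.44 and Uqcr11 from -0.47 to -0.098. Of the linked lists, ATP synthase genes called higher numbered 3 as reported, 1 with mtDNA kept in the scaling or no filter, 0 without TMM or with DESeq2, and 0 to 2 without any 1 library. With DESeq2 the call among cytochrome c partners and that in complex IV were lost (0 each). The regulators and complex I each had 1 higher with mtDNA kept in the scaling or over genes counted in all 6 libraries, and complex IV had 1 higher with the replicate block. Without any 1 library these lists, and the processing peptidase genes, held 0 or 1 call in a direction. Without TMM the median of all tested nuclear genes moved to -0.10, and 41.8% of all calls were higher, against 52.3%. Over all genes, 203 were higher and 185 lower; DESeq2 gave 105 and 56, and no filter gave 189 and 122. Without a filter Cycs had a log2 fold change of 0.29 (edgeR adjusted p = 0.906). Adding the counts of copies (without Dennd5b and 4930481A15Rik) was chosen after seeing the data. Depth limits the small subunits and Cycs, where small changes were not detectable.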
